A study of Homo sapiens with 6 samples.

Results

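The 10 genes described here lie on the long arm of chromosome 17 around the receptor gene ERBB2 and belong to the stretch that is commonly amplified together with it in HER2-positive breast cancer. They are ERBB2, GRB7, STARD3, MIEN1, PGAP3, TCAP, PNMT, MED1, CDK12 and PPP1R1B. Each was taken by its symbol from the deposited gene annotation, by a rule that used no measured value although earlier results of these data were known when the genes were chosen, and the 10 genes were found among 54644 annotated genes. In the same tables the members had 149 of 264911 isoforms and 63 of 132223 start-site groups, a start-site group being the transcripts of a gene that share a transcription start.

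Polyadenylated RNA was sequenced from SKBR3 cells, a HER2-positive human breast adenocarcinoma line of epithelial morphology. All cells had been infected with lentivirus and selected in puromycin. The 3 libraries called CTTN came from cells carrying pLVX-CTTN, which expresses the cDNA of cortactin, an actin-binding protein encoded by CTTN, and the 3 libraries called control came from cells carrying the pLVX vector alone. The comparison asked which transcripts differ when cortactin is overexpressed, in 1 cell line and in stably infected cells whose number of separate infections the labels do not give, so p-values measure the spread between these samples.

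ERBB2 encodes HER2, a receptor tyrosine kinase without a known ligand that signals by pairing with other receptors of its family, chiefly HER3, to the PI3K-AKT and RAS-MAPK routes. In HER2-positive tumours the gene is present in many copies, and the neighbouring genes on the same segment are copied with it. GRB7 is an adaptor that binds phosphorylated HER2 through its SH2 domain. STARD3 moves cholesterol at late endosomes, MIEN1 is a small membrane-anchored protein linked to cell migration, and PGAP3 remodels the lipid of GPI anchors. TCAP is the titin cap of striated muscle and PNMT makes adrenaline, so both have their main known roles outside the breast. MED1 is the Mediator subunit that contacts nuclear receptors, CDK12 phosphorylates RNA polymerase II and sustains the transcription of long genes, and PPP1R1B, also called DARPP-32, regulates protein phosphatase 1.

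In the RefSeq annotation of GRCh38.p14 the members spanned 343001 bases from MED1 to GRB7. PGAP3 on the minus strand and ERBB2 on the plus strand start 36 bases apart, at chr17:39688058-39688093. That stretch lies outside both genes and is shown because the starts of the receptor gene and its neighbour flank it. Capitals mark 2 matches to CCGGAA, the core letters of sites for ETS-family factors, on either strand.

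PGAP3-ERBB2 interval, plus strand: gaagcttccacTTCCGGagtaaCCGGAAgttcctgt

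RefSeq promoter windows, 250 bases before to 50 bases after a start, were matched for 6 of 10 members, namely ERBB2, STARD3, MIEN1, PGAP3, MED1 and CDK12. The letters CCGGAA, chosen after the sequences were seen, occurred in 4 of 6 member windows (ERBB2, STARD3, MIEN1 and PGAP3) and in 17.2% of 35116 windows of all genes. The ERBB2 and PGAP3 windows overlap by 136 bases and share the same 2 matches. Searched on both strands, the GC box GGGCGG was in the windows of STARD3, MIEN1 and PGAP3 and in 45% of all windows. CCAAT was in the windows of ERBB2 and MED1 and in 34.6% of all windows. The AP-2 letters GCCNNNGGC were in the STARD3 window and in 23.2% of all windows, and the letters GAGGAA were in the MED1 window and in 27.9%. TATAA was in none of the 6 member windows and in 20.4% of all windows. A match of letters is a description of the window only. The ERBB2 transcripts assigned to start-site groups within 1000 nt of the first annotated GENCODE start held only 0.326% to 0.865% of ERBB2 expression, since the main transcripts start further downstream, as described with the isoforms.

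The deposited counts summed to 35695339 to 39318390 per library. CTTN itself, the gene that was introduced, was listed at 104, 108 and 108 FPKM (fragments scaled by transcript length and by library size) in control libraries 1 to 3. In CTTN libraries 1 to 3 it was at 263, 329 and 180 FPKM. All CTTN libraries were above all controls and CTTN 3 was the lowest of them, with a log2 fold change of 1.35 (SE 0.22, adjusted p = 0.0249, edgeR quasi-likelihood test with Benjamini-Hochberg adjustment). Leaving out 1 library at a time gave adjusted p-values of 1.91e-04 to 0.154 in the same test.

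The CTTN libraries were unlike one another. The control libraries differed little among themselves, CTTN 2 lay near them, and CTTN 3 and, less so, CTTN 1 stood apart with short transcripts high and long transcripts low. In CTTN 3 the median log2 difference from the control mean was 0.747 over genes with transcripts up to 1000 nt and -0.841 over genes with transcripts over 6000 nt. The corresponding medians were 0.323 and -0.47 in CTTN 1 and 0.0161 and -0.00872 in CTTN 2. The labels say that RNA integrity was checked before library preparation but give no value per library, and its part in the pattern, like the part of the pattern in the results below, was not tested. Values without CTTN 2 and values after removing each library's trend with length are given for the 10 members and, as counts, for the lists of related genes. The luminal epithelial genes KRT7, KRT8, KRT18, KRT19 and EPCAM summed to 4912 to 8762 FPKM, while the summed fibroblast and the summed endothelial markers stayed between 1.55 and 4.62 FPKM in every library, with none of these 8 markers at 0 throughout. The endothelial sum was 4.12 to 4.62 FPKM in controls and 1.55 to 2.17 FPKM in CTTN libraries, mostly from CDH5. The endothelial sums of the groups did not overlap.

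ERBB2 was among the most strongly expressed genes of the line. Its FPKM was 1646, 1671 and 1708 in control libraries 1 to 3, a mean of 1675 ± 30.9 (SD, n = 3), and 1782, 1790 and 1644 in CTTN libraries 1 to 3. These values ranked it between 29th and 85th of all genes by FPKM, and its reads made up 0.692% to 0.871% of all deposited counts. The 10 members together held 1.03% to 1.32% of the counts, so ERBB2 supplied most of the group's reads.

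Read per unit of transcript length, the members fell into a steep order in the control libraries. MIEN1 followed ERBB2 at 520 ± 35.9 FPKM, STARD3 was at 390 ± 7.33 and GRB7 at 300 ± 21.1 (SD, n = 3 here and in the next sentences). CDK12 was at 217 ± 18.4 FPKM, MED1 at 179 ± 17.2 and PGAP3 at 89.5 ± 2.64. PPP1R1B, TCAP and PNMT were far lower, at 23.7 ± 2.02, 8.41 ± 1.03 and 1.42 ± 0.194 FPKM.

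The step from ERBB2 to MIEN1 was 3.22-fold in control FPKM, and that from MED1 to PGAP3 was 2-fold. No neighbouring pair in the order had overlapping control libraries. Over all 6 libraries the FPKM ranges of MIEN1 and STARD3, STARD3 and GRB7, CDK12 and MED1, and MED1 and PGAP3 overlapped. Within a library the first of each neighbouring pair was nevertheless the higher in 6 of 6 libraries, except that MED1 was above PGAP3 in 5 of 6 and below it in CTTN 3. Of all annotated genes, 21.6% reached 1 FPKM and 1.84% reached 100 FPKM in the control mean, against 10 and 6 of the 10 members.

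**Figure D1:**
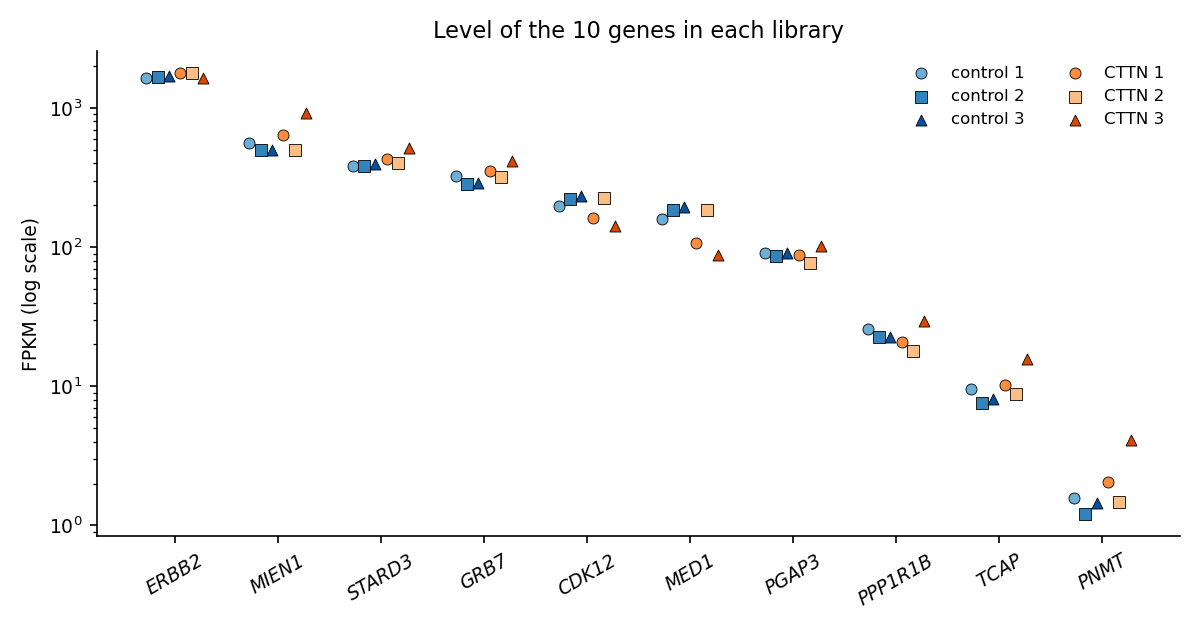
FPKM of the 10 genes in each of the 6 libraries, on a log axis, with genes ordered by their mean in the control libraries and 1 point per library. ERBB2 lies between 1644 and 1790 FPKM in every library, MED1 and CDK12 are lowest in CTTN 3, and PNMT is the lowest gene throughout.

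The difference in ERBB2 RNA between the groups was smaller than the spread of the libraries. On the scale of normalised CPM (counts scaled to the library total after TMM scaling), ERBB2 was at 7693, 7493 and 7992 in the controls and at 8061, 8460 and 7443 in CTTN libraries 1 to 3. The groups overlapped, with CTTN 2 the highest library and CTTN 3 the lowest. The log2 fold change was 0.05 (SE 0.09, 95% interval -0.16 to 0.26, adjusted p = 0.715, edgeR quasi-likelihood test).

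The ERBB2 result depended on whether the length trend was removed. Without CTTN 2, which leaves CTTN 1 and CTTN 3 with their length pattern, the ERBB2 log2 fold change was -0.00116 (adjusted p = 0.992, edgeR quasi-likelihood test). After removing the length trend of each library it was 0.27 (SE 0.07, adjusted p = 0.0321, edgeR quasi-likelihood test with length offsets). With both changes together it was 0.33 (adjusted p = 2.31e-04). The length offsets were added after the data had been seen.

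GRB7, the SH2 adaptor of HER2, was at 579, 490 and 516 normalised CPM in the controls. In the CTTN libraries it was at 620, 565 and 712, so CTTN 1 and CTTN 3 were above every control and CTTN 2 lay among them. Its log2 fold change of 0.26 (SE 0.11, 95% interval -0.01 to 0.53) did not pass the test (adjusted p = 0.172, edgeR).

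STARD3, the late endosomal cholesterol carrier, was at 656, 630 and 663 normalised CPM in the controls and at 739, 662 and 831 in the CTTN libraries. Again CTTN 1 and CTTN 3 were above the controls and CTTN 2 lay within their range. The log2 fold change was 0.20 (SE 0.10, adjusted p = 0.219, edgeR).

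MIEN1, the migration-linked membrane protein, was at 434, 381 and 388 normalised CPM in the controls and at 496, 390 and 709 in the CTTN libraries. CTTN 3 alone was far above the others. The log2 fold change was 0.41 (SE 0.21, 95% interval -0.08 to 0.89, adjusted p = 0.213, edgeR). RefSeq places the 3′ ends of ERBB2 and MIEN1 on opposite strands with 149 bases in common, and since the strand setting of the counting was not stated, reads there may be split between them.

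PGAP3, the GPI-anchor remodelling enzyme that starts beside ERBB2, was at 226, 208 and 225 normalised CPM in the controls and at 205, 192 and 224 in the CTTN libraries. The groups overlapped and no library was far from the rest. The log2 fold change was -0.09 (SE 0.09, adjusted p = 0.509, edgeR).

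The muscle gene TCAP was at 18.9, 16.2 and 17.2 normalised CPM in the controls and at 20.1, 17.9 and 25.8 in the CTTN libraries, with CTTN 3 the highest. Its log2 fold change was 0.29 (SE 0.15, adjusted p = 0.215, edgeR). PNMT, the adrenaline-forming enzyme, was near the detection limit, at 1.18, 0.874 and 1.14 normalised CPM in the controls and at 1.64, 1.09 and 2.76 in the CTTN libraries. These values rest on 32.2931 to 100.848 deposited counts per library, and the log2 fold change of 0.78 (SE 0.35, 95% interval -0.05 to 1.60) did not pass the test (adjusted p = 0.18, edgeR).

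Among the transcription genes, MED1 was at 764, 924 and 949 normalised CPM in the controls. In the CTTN libraries it was at 448, 911 and 303, so CTTN 1 and CTTN 3 were below every control and CTTN 2 lay among them. The log2 fold change of -0.67 (SE 0.37, 95% interval -1.53 to 0.19) did not pass the test (adjusted p = 0.238, edgeR).

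CDK12, the RNA polymerase II kinase, was at 1465, 1637 and 1700 normalised CPM in the controls and at 1075, 1599 and 803 in the CTTN libraries. As for MED1, CTTN 1 and CTTN 3 were low and CTTN 2 was among the controls. The log2 fold change was -0.47 (SE 0.23, 95% interval -1.01 to 0.08, adjusted p = 0.209, edgeR). PPP1R1B, the phosphatase regulator, was at 44.6, 38.9 and 39.4 normalised CPM in the controls and at 35, 31.9 and 48.2 in the CTTN libraries. CTTN 1 and CTTN 2 were below the controls and CTTN 3 above them, with a log2 fold change of -0.09 (SE 0.16, adjusted p = 0.69, edgeR).

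Across the group, 0 of 10 members passed an adjusted p of 0.05 in the edgeR quasi-likelihood test, while 4.2% of the 14433 genes tested did. Of those genes, 331 were higher and 275 lower in CTTN libraries. At an unadjusted p under 0.05 the count of members was also 0, against 30.2% of all genes, and by DESeq2 it was 0, against 14.3% of all genes. With the additional criterion of a fold of at least 1.5 the share of all genes was 3.2%, again with 0 members. All 10 members had passed the filter on low counts. The 3 CTTN and 3 control libraries were without overlap in 0 of 10 members and in 38.7% of all genes tested. The fitted log2 fold change was above 0 in 6 members and below 0 in 4, with a median of 0.12 in the members and of 0.01 in all genes tested.

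Library by library, the members spread out most in CTTN 3. Their log2 differences from the control mean ran from -1.54 for MED1 to 1.38 for PNMT in that library, a range of 2.91. The range was 1.59 in CTTN 1, 0.49 in CTTN 2 and 0.17 to 0.36 in the controls. For 10 of 10 members CTTN 1 lay between CTTN 2 and CTTN 3, and CTTN 3 was the highest library for 6 members and the lowest for 3.

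The order of the members in CTTN 3 followed transcript length. The shortest transcripts, those of PNMT (mean length 944.6 nt) and MIEN1 (957.8 nt), had the highest log2 differences, and those of MED1 (4373 nt) and CDK12 (6789 nt) had the lowest. Spearman's rho with length over the 10 members was -0.903 in CTTN 3, as a description, since the points share 1 library. It was -0.806 in control 1, -0.758 in CTTN 1 and 0.309 to 0.685 in the other 3 libraries, so an order by length was also present in a control, over a far smaller range. Over 14433 genes rho was -0.658 in CTTN 3, -0.521 in CTTN 1, -0.353 in control 1, -0.0526 in CTTN 2, 0.159 in control 2 and 0.22 in control 3. ERBB2, at 4173 nt, had a log2 difference of -0.05 in CTTN 3. By rank it lay between PGAP3 (2619 nt) and the longer MED1 and CDK12. The median over all genes with transcripts of 4000 to 6000 nt was -0.538 in CTTN 3, further from the control mean than ERBB2. At the long end MED1 was below the longer CDK12.

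CTTN 2 was the CTTN library nearest the controls. It also had the most CTTN RNA, at 329 FPKM against 263 in CTTN 1 and 180 in CTTN 3. Without CTTN 2, 7 of 10 members passed the edgeR test, and 47.2% of all genes tested did. MIEN1 (log2 fold change 0.58), PNMT (1.04), TCAP (0.40), GRB7 (0.33) and STARD3 (0.27) were then higher in the CTTN libraries, while MED1 (-1.23) and CDK12 (-0.78) were lower. PGAP3 (-0.04), PPP1R1B (0.02) and ERBB2 did not pass. Without CTTN 3, the library furthest from the controls, 0 of 10 members passed the edgeR test, against 8.54% of all genes. The log2 fold changes were then 0.14 for MIEN1, 0.35 for PNMT, 0.13 for TCAP, 0.17 for GRB7, 0.11 for STARD3, -0.37 for MED1 and -0.26 for CDK12, all closer to 0 than with all 6 libraries, and -0.29 for PPP1R1B, -0.15 for PGAP3 and 0.10 for ERBB2, further from it. With all 6 libraries and length offsets, 16.2% of all genes and 1 of 10 members, ERBB2, passed. Under these offsets the log2 fold change was -0.12 for CDK12, -0.50 for MED1, 0.48 for PNMT, 0.18 for TCAP and GRB7, 0.11 for MIEN1, 0.09 for STARD3, -0.06 for PGAP3 and -0.28 for PPP1R1B. With length offsets and without CTTN 2, 40.2% of all genes and 8 of 10 members passed, PGAP3 and PPP1R1B being the exceptions. In that fit MED1 was at -0.89 and CDK12 at -0.19 on the log2 scale.

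**Figure D2:**
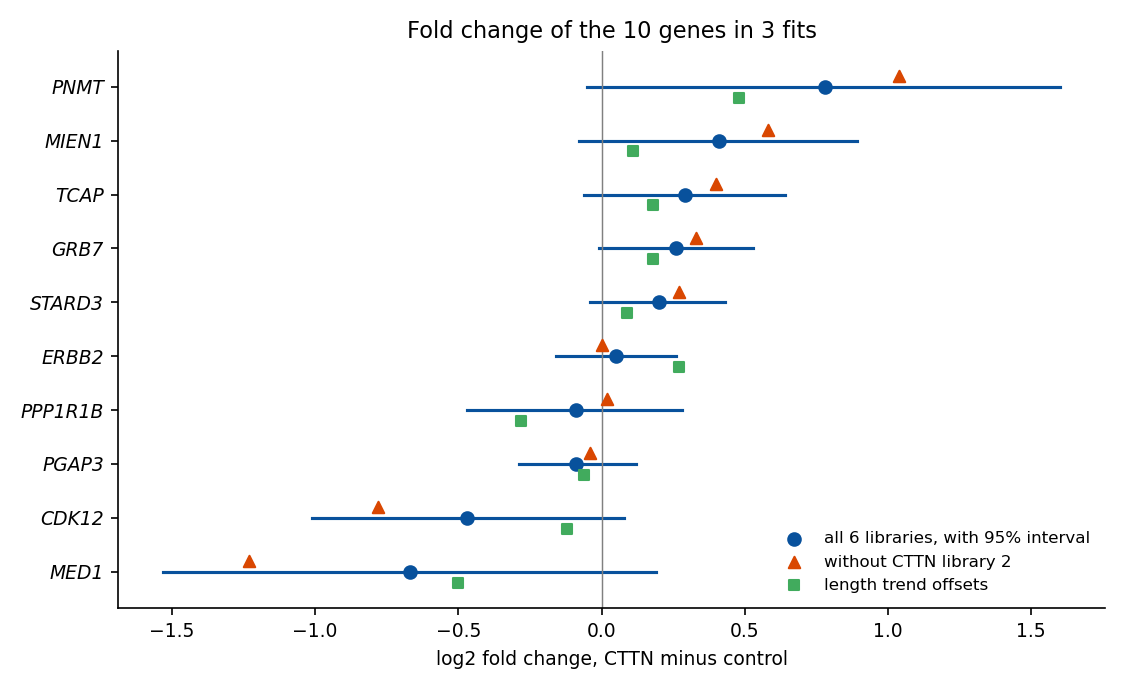
Log2 fold change of each of the 10 genes, CTTN minus control, from all 6 libraries (circles with 95% interval, n = 3 against 3), without CTTN library 2 (triangles) and with length trend offsets (squares). Every interval from all 6 libraries includes 0, MED1 lies lowest at -0.67 and PNMT highest at 0.78, and length offsets move ERBB2 to 0.27.

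At the level of isoforms, most ERBB2 expression came from 2 full-length coding transcripts of 27 exons, with mean shares of 48.7% and 35.6%. ENST00000269571 held 52.1%, 54.8% and 58.4% of the FPKM summed over ERBB2 isoforms in control libraries 1 to 3, and ENST00000541774, whose start lies slightly upstream, held 30.6%, 26.9% and 23.1%. In CTTN libraries 1 to 3 the shares were 41.3%, 59.3% and 25.3% for ENST00000269571 and 45.5%, 21.7% and 66.8% for ENST00000541774. The major isoform thus changed places in CTTN 1 and CTTN 3, whereas CTTN 2 resembled the controls. The starts of these transcripts lie 12150 nt and 11646 nt downstream of the first annotated GENCODE start of the gene. Another ERBB2 start-site group above 5% of the gene held 6.74% to 7.25% in the controls and 4.07% to 6.77% in CTTN libraries.

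In PGAP3, STARD3, MED1 and CDK12 some isoforms also lay far from the controls in CTTN 1 and CTTN 3. These are the libraries with the length pattern, whose part in the isoform shares was not tested. The main PGAP3 transcript ENST00000300658 held 67.6%, 70.3% and 68.8% of the gene in the controls and 61.4%, 68% and 44.5% in the CTTN libraries. The shorter PGAP3 transcript ENST00000619169 held 2.06%, 1.58% and 2.84% in the controls and 17.1%, 2.61% and 40.8% in the CTTN libraries. CTTN 1 and CTTN 3 were far above the controls and CTTN 2 was among them. A retained-intron transcript, ENST00000309862, held 15.2% to 16% of PGAP3 in the controls and 7.03% to 14.7% in the CTTN libraries.

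STARD3 was mainly the coding transcript ENST00000336308, at 61% to 63.9% of the gene in the controls and 55.9% to 66.2% in the CTTN libraries. Its retained-intron transcript ENST00000585269, which starts 21304 nt downstream of the first start, held 5.51%, 3.8% and 4.24% in the controls and 11.6%, 4.28% and 29.5% in the CTTN libraries. For MED1 the coding transcript ENST00000394287 of 2870 nt held 45.6%, 39.9% and 38.8% in the controls and 63.9%, 37.8% and 88.7% in the CTTN libraries. The longer MED1 transcript ENST00000300651 of 5844 nt held 20.9%, 32.8% and 37.1% in the controls and 38% in CTTN 2, and it was listed at effectively 0 in CTTN 1 and CTTN 3. Another MED1 transcript, ENST00000577831, annotated as a target of nonsense-mediated decay, held 23.5% to 33.2% in the controls and 11.3% to 35.8% in the CTTN libraries.

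CDK12 had 5 isoforms at or above 5% of the gene. The single-exon retained-intron transcript ENST00000584336, which starts 68396 nt downstream of the first start, held 17.6%, 11.1% and 9% in the controls and 37.9%, 3.56% and 70.9% in the CTTN libraries. It was the largest CDK12 isoform in CTTN 1 and CTTN 3. A shorter form of the same transcript held 8.67% in CTTN 2, and the start-site group of both forms held 17.6%, 13.6% and 13.7% in the controls and 37.9%, 12.2% and 70.9% in the CTTN libraries. A full-length coding form of ENST00000430627 of 5918 nt held 25.3% to 28.3% in the controls and 14.6%, 24.7% and 7.35% in CTTN libraries 1 to 3. The form of ENST00000430627 of 8837 nt held 24.4% to 25.2% in the controls and 18.7%, 28.8% and 6.51% in the CTTN libraries. ENST00000447079 of 8336 nt held 9.98% to 14.9% and 9.62% to 16.1%, and a related assembled form of 8861 nt held 13.9% to 18.5% in the controls and 7.24%, 17.4% and 1.1% in the CTTN libraries.

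The leading isoforms of the remaining members are given by their ranges. GRB7 was led by ENST00000394211 at 41.5% to 45.3% in the controls and 43.6% to 53% in the CTTN libraries, ahead of ENST00000309156 at 26.9% to 29.8% and 14.4% to 26.1%. A pair of assembled relatives of ENST00000309156, of 2198 nt and 2162 nt, held 9.85% to 11.5% and 2.49% to 6.17% in the controls and 7.13% to 9.53% and 5.31% to 9.59% in the CTTN libraries. MIEN1 was led by the 4-exon transcript ENST00000394231 at 70.6% to 74% and 71.7% to 80.9%. Its minor forms ENST00000474210, ENST00000469568 and ENST00000577810 held 10.9% to 13.5%, 7.62% to 7.97% and 5.66% to 6.61% in the controls. In the CTTN libraries they held 5.93% to 10.9%, 7.11% to 9.68% and 4.82% to 5.79%. PPP1R1B was led by ENST00000394267 at 64.2% to 67% in the controls and 64.9% to 71.3% in the CTTN libraries, CTTN 2 being the highest. ENST00000394265 held 21.6% to 25.3% of PPP1R1B in the controls and 24.5%, 16% and 25.3% in CTTN libraries 1 to 3. The leading PPP1R1B start-site group, 1758 nt downstream of the first start, held 87.2% to 90.7% of the gene in all 6 libraries. TCAP was led by ENST00000309889 at 85.1% to 99.8% and 71.9% to 90.3%, ahead of ENST00000578283 at 0.235% to 14.9% and 9.71% to 28.1%. PNMT, measured on few reads, was led by ENST00000394246 at 63.6% to 69.7% in the controls, 82.8% in CTTN 2 and 86% in CTTN 3, whereas in CTTN 1 it held 40.2% and ENST00000269582 led at 59.8%.

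No isoform of any gene passed the edgeR quasi-likelihood test, so 0% of the 58275 isoforms tested and 0 of 99 tested member isoforms were called. At an unadjusted p under 0.05 there were 6 of 99 member isoforms, against 6.24% of all isoforms tested. DESeq2 called 1 of 99, against 2.02% of all isoforms. That isoform was PGAP3 ENST00000619169, with a log2 fold change of 3.30 (SE 1.05), an adjusted p of 0.767 in edgeR and an adjusted p of 0.0313 in DESeq2.

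Start-site groups at or above 5% of a gene numbered 22. The leading GRB7 group held 53.5% to 56.8% in the controls and 53.3% to 70.2% in the CTTN libraries, and the other 35.3% to 36.9% and 25.2% to 35.2%. The leading STARD3 group held 77.8% to 79.4% and 63.8% to 78.6%, the group of its retained-intron transcript 7.68% to 9.73% and 8.01% to 30.8%, and the remaining one 8.28% to 9.01% and 0.566% to 9.29%. The MIEN1 groups held 71.8% to 74.7% and 25.3% to 28.2% in the controls and 72.9% to 81.7% and 18.3% to 27.1% in the CTTN libraries.

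The main PGAP3 group held 97.6%, 97.2% and 96.4% in the controls and 81.1%, 96.4% and 57.3% in the CTTN libraries, the rest being mostly the group of ENST00000619169. MED1 had 1 such group with nearly all of its expression. The leading CDK12 group held 38.8%, 42.1% and 44.7% in the controls and 26.5%, 47.5% and 7.73% in the CTTN libraries. The other groups at or above 5%, of ERBB2, TCAP, PNMT and CDK12, each follow the isoform already given for them.

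In edgeR 0% of the 35916 groups tested and 0 of 49 member groups passed, while 3 of 49 had an unadjusted p under 0.05 against 10.4% of all groups. DESeq2 called 2 of 49 member groups against 2.98% of all groups, and both of these are named because their number is small. The first was the PGAP3 group that holds ENST00000619169. Its log2 fold change was 3.31 (SE 1.04, adjusted p = 0.478, edgeR), with an adjusted p of 0.0165 in DESeq2. The other was a minor PPP1R1B group that held 0.478% to 0.496% of the gene in the controls and 1.46% to 2.93% in the CTTN libraries. Here the log2 fold change was 2.10 (SE 0.45, adjusted p = 0.385, edgeR), with an adjusted p of 0.0381 in DESeq2. In that PPP1R1B group all CTTN libraries, CTTN 2 included, were above all controls, at levels under 1 FPKM.

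ERBB2 and its neighbours were set against the chromosome around them. Locus starts here are those of the deposited annotation, where several genes can share 1 locus, and they differ from the RefSeq starts. ERBB2, PGAP3 and MIEN1 share the locus start 39671122, whereas the RefSeq start of ERBB2 is 39688094. Within 1 Mb of the start of the ERBB2 locus there were 100 annotated genes, of which 52 were tested and 18 reached 100 FPKM in the control mean. The 5 highest by control FPKM were the ribosomal protein gene RPL19 (20859), ERBB2 (1675), the ribosomal protein gene RPL23 (714), MIEN1 (520) and the proteasome gene PSMD3 (407). So 2 of the 5 were members.

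Among the 52 tested neighbours 1 was called, or 1.92%, against 4.2% of all genes. It was LASP1, which encodes an actin-binding LIM and SH3 domain protein. LASP1 was at 86.1, 88.9 and 90 FPKM in the controls and at 60.3, 68.8 and 52.6 FPKM in CTTN libraries 1 to 3. All CTTN libraries were below all controls. LASP1 fell by 0.52 on the log2 scale (SE 0.10, adjusted p = 0.0438, edgeR). With length offsets its log2 fold change was -0.34 (adjusted p = 0.0028, edgeR). Leaving out 1 library at a time gave adjusted p-values of 0.00193 to 0.208 in edgeR, and LASP1 passed in 2 of 6 such fits, those without CTTN 2 and without CTTN 3. PSMD3 was at 404, 411 and 406 FPKM in the controls and at 517, 460 and 562 FPKM in the CTTN libraries (log2 fold change 0.28, SE 0.08, adjusted p = 0.0879, edgeR). Its groups were without overlap in FPKM, but it did not pass the test.

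**Figure D3:**
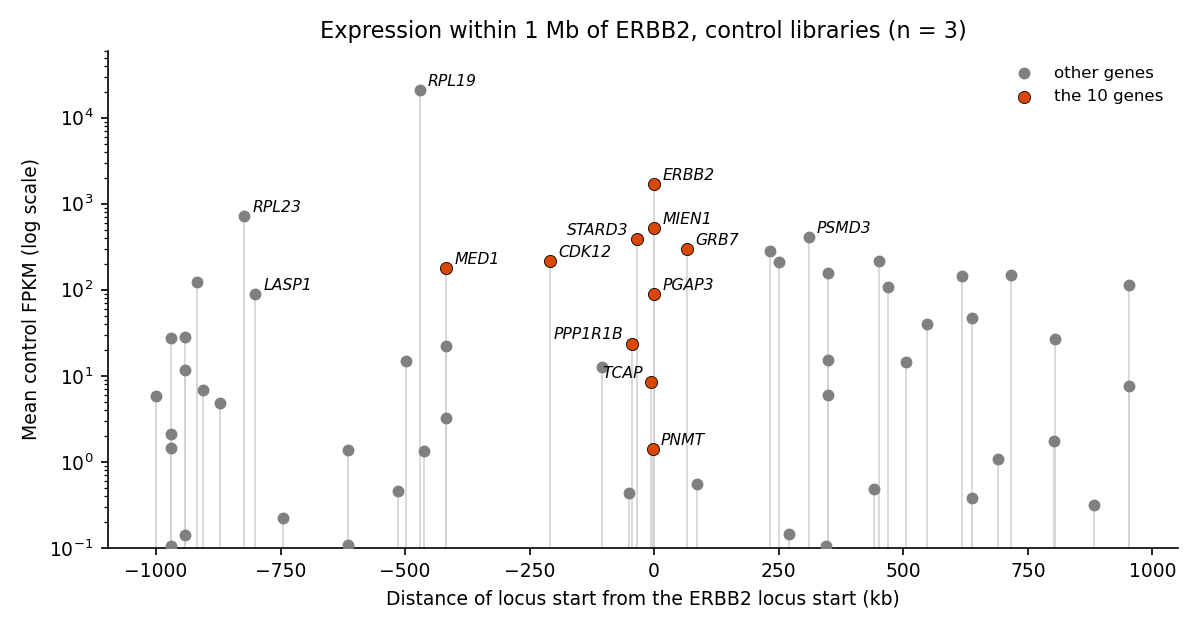
Mean FPKM in the 3 control libraries, on a log axis, of the 58 genes at or above 0.1 FPKM within 1 Mb of the ERBB2 locus start, against the distance of each locus start in kb, with the 10 genes in orange and 42 genes below 0.1 FPKM not drawn. ERBB2 at 1675 FPKM is exceeded only by RPL19 at 20859 FPKM, and 6 of the 10 genes lie above 100 FPKM. Locus starts are those of the deposited annotation, in which ERBB2, PGAP3 and MIEN1 have the same start.

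Genes that work with the members were examined from lists of related genes, with counts also given without CTTN 2, where 47.2% of all genes passed, and with length offsets, where 16.2% did. Beside these, 4.2% of all genes passed with all 6 libraries. Of the genes named from the lists, PIK3R2, MED23, MED30, FANCI, CCNT2 and STARD8 did not pass with all 6 libraries but passed without CTTN 2 and also without CTTN 3 (adjusted p of 0.0259 to 0.0487 without CTTN 3, edgeR). Of 45 tested adaptors and effectors of HER2 signalling, 0 passed in either direction in edgeR, with a median log2 fold change of -0.15. Without CTTN 2, 7 were higher and 21 lower, and with length offsets 7 were higher and 3 lower. The PI3K regulatory subunits came closest, with PIK3R1 at -0.61 (SE 0.17, adjusted p = 0.086, edgeR) and the PIK3R2 entry, which is merged with IFI30 and AC007192.1, at 0.47 (SE 0.13, adjusted p = 0.0808). In CTTN 2 PIK3R1 was within the control range, at 3.91 FPKM against 3.63 to 4.41. The merged PIK3R2 entry was above its control range, at 268 FPKM against 226 to 237. Values of the merged entry cannot be assigned to PIK3R2 alone. The kinase BRAF had a log2 fold change of -0.44 (SE 0.12, adjusted p = 0.0874, edgeR).

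Of 14 tested transcription factors associated with ERBB2, 1 was higher and 0 lower, with a median of -0.13. Without CTTN 2, 3 were higher and 4 lower, and with length offsets 2 and 1. TFAP2B, an AP-2 factor, was at 0.528, 0.296 and 0.514 FPKM in the controls and at 0.867, 0.978 and 1.05 FPKM in CTTN libraries 1 to 3. TFAP2B was thus higher in all CTTN libraries, at a low level, by 1.09 on the log2 scale (SE 0.18, adjusted p = 0.0265, edgeR). Like LASP1, it passed without CTTN 2 or CTTN 3 but not without CTTN 1 or any control, with adjusted p-values of 0.00298 to 0.158 in edgeR. The luminal factor GATA3 was at 11 to 11.4 FPKM in the controls and at 13.1, 11.7 and 13.3 FPKM in the CTTN libraries, and SP1 had a log2 fold change of -0.49 (SE 0.21). Neither passed (adjusted p = 0.109 and 0.17, edgeR).

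In the Mediator complex, to which MED1 belongs, 0 of 32 tested subunits passed in edgeR, with a median of 0.05. Without CTTN 2, 9 were higher and 7 lower, and with length offsets 2 and 1. The subunits with the smallest adjusted p differed in direction, with MED23 at -0.71 (SE 0.19) and MED30 and MED10 at 0.68 (SE 0.19) and 0.49 (SE 0.16) on the log2 scale. MED23 has a mean transcript length of 3850 nt, MED30 of 925.5 nt and MED10 of 1116 nt.

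Among 17 tested partners of CDK12 and repair genes that depend on it, 1 was higher and 0 lower, with a median of -0.25. Without CTTN 2, 2 were higher and 11 lower, and with length offsets 1 and 2. The gene called with all 6 libraries was the CDK9 entry, merged with 2 microRNA genes, the kinase of the elongation factor P-TEFb. CDK9 was at 21.8, 21.1 and 22.8 FPKM in the controls and at 28.3, 28.5 and 29.8 FPKM in the CTTN libraries, so the 3 CTTN libraries were close together and above all controls. Its log2 fold change was 0.42 (SE 0.08, adjusted p = 0.0392, edgeR), and 0.37 with length offsets (adjusted p = 0.00464). Over the fits that left out 1 library its adjusted p ran from 0.00357 to 0.221 in edgeR, again passing only without CTTN 2 or without CTTN 3. The repair gene FANCI and the P-TEFb cyclin CCNT2 had log2 fold changes of -0.38 (SE 0.09) and -0.49 (SE 0.14) and did not pass (adjusted p = 0.0687 and 0.0912, edgeR). FANCI and CCNT2 passed without CTTN 2 (adjusted p = 0.00298 and 0.00392, edgeR) and without CTTN 3 (adjusted p = 0.0465 and 0.0487).

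Of the 2 relatives of GRB7, GRB14 was at 2.84, 1.66 and 1.96 FPKM in the controls and at 4.27, 2.25 and 3.56 FPKM in the CTTN libraries. It passed the test at a log2 fold change of 0.56 (SE 0.12, adjusted p = 0.047, edgeR), although CTTN 2 lay within the control range. With length offsets its log2 fold change was 0.40 and it did not pass (adjusted p = 0.0557, edgeR), nor did it pass without CTTN 1 or any control (adjusted p up to 0.226). GRB10 was lower in every CTTN library, at 6.22, 7.56 and 6.3 FPKM against 8.29 to 8.78 FPKM, with a log2 fold change of -0.34 (SE 0.08, adjusted p = 0.0654, edgeR). Without CTTN 2 both relatives passed, GRB14 higher and GRB10 lower, and with length offsets 0 of the 2 did.

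In the lipid-related families of PGAP3 and STARD3 no gene passed with all 6 libraries. In edgeR 0 of 9 tested genes of GPI-anchor assembly and remodelling were called, with a median log2 fold change of 0.15, and 0 of 10 genes of the STARD family, with a median of 0.01. Without CTTN 2, 3 of 9 GPI-anchor genes and 3 of 11 STARD genes passed, and with length offsets 1 of 9 and 3 of 10. PIGS and GPAA1 of the GPI transamidase were at 0.17 and 0.30 and PGAP1 at -0.47 on the log2 scale. STARD8, ACOT11 and STARD4 were at -0.69, 0.53 and -0.39. In the wider 17q12-q21 list 0 of 30 tested genes were higher and 1, LASP1, was lower, with a median of 0.06. Without CTTN 2, 16 of 31 passed, 8 in each direction, and with length offsets 3 were higher and 1 lower. The lymphoid factor IKZF3 in that list was at 0.536 to 0.59 FPKM in the controls and 0.277 to 0.396 FPKM in the CTTN libraries (adjusted p = 0.0916, edgeR).

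The libraries' pattern of ERBB2 was compared with that of 6684 genes with a mean of at least 10 FPKM, by Pearson's correlation of log2(FPKM + 1) over the 6 libraries, as a description. The 5 most similar were SEMA4C (0.992), the entry of TPCN2 and AP003071.5 (0.982), PRKRA (0.98), FKBP9 (0.974) and BAHD1 (0.969). PNMT lies below that minimum, and the other 8 neighbours ranged from -0.893 for PPP1R1B and -0.708 for PGAP3 to 0.146 for MED1 and 0.192 for CDK12. ERBB2 varied little between libraries, so these values describe small differences. In these bulk libraries, fewer cells expressing a gene and less RNA per cell cannot be told apart.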

How the data were processed

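Gene, isoform and start-site tables had been deposited by the authors. According to the submitters' processing notes, reads were demultiplexed with bcl2fastq 2.20.0 and processed with Trimmomatic, STAR and Cufflinks on GRCh38. The study's methods name Cutadapt and hg19 instead. The loci in the tables fit GRCh38. The deposited estimated counts are Cuffnorm-type values that the authors' pipeline had already divided by a scale factor per library. The deposited FPKM values relate fragments to transcript length and library size. The strand setting of the counting was not given in the sources used here.

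The 6 columns were matched to libraries by the deposited sample table, and 0 columns of per-sample values were left out. The labels' descriptions name another column for part of the controls, so control columns were used as a group and control 1 to 3 follow the sample table. Column sums were 35695339 to 39318390, which limits genes of few counts such as PNMT. No 2 libraries agreed within sampling noise.

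Counts were rounded and tested in R 4.3.3 with edgeR 4.0.16 (TMM, filterByExpr, quasi-likelihood test, Benjamini-Hochberg over all genes tested, threshold 0.05). DESeq2 1.42.0 and limma 3.58.1 on log2(FPKM + 1) or log2(FPKM + 0.1) served as alternatives. Length trend offsets were a loess fit, span 0.5, of each library's difference from the mean on log transcript length. Scripts were tested on simulated data. Python 3.11.15, pandas 2.3.3 and matplotlib 3.10.9 were used for tables and figures.

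An exact permutation test of 3 against 3 libraries cannot give a two-sided p below 0.1 and was not used. The members and the lists of related genes were chosen with earlier results of these data known. All 10 members are named. Of each related list the 3 genes with the smallest adjusted p are named, of the genes within 1 Mb the 5 with the highest FPKM and those called, of the genes most like ERBB2 the 5 of highest correlation, and of isoforms and start-site groups those with at least 5% of the gene. Promoter windows and gene coordinates are from RefSeq on GRCh38.p14. Transcript types and start offsets are from GENCODE and were computed within its own build. The result of 1 marker list is not reported here.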

Additional observations from a re-analysis of the deposited data

How the results depend on the processing

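The count of genes called, 606 with all 6 libraries, moved from 15 without 1 control library to 6953 without CTTN 2 when libraries were left out in turn. Other settings that moved it by more than 1.5 times were DESeq2 (2069), limma on log2(FPKM + 1) (116) or on log2(FPKM + 0.1) (131), length trend offsets (2333) and length trend offsets without CTTN 2 (5925). Only the columns the labels name gave 29, being the same fit as that without control 1. The count of members called was 0 to 7 over the left-out libraries, 7 only without CTTN 2. It was 1 with length trend offsets (ERBB2) and 8 with these offsets and without CTTN 2, both added after seeing the data. DESeq2 called 1 member isoform and 2 member start-site groups, where edgeR called 0. Of the genes within 1 Mb 1 was called, of those within 0.5 Mb 0. Replicate numbers were not shown to pair the libraries, since deviations of same-numbered libraries correlated at 0.0285, 0.0791 and -0.19. With the replicate number as a block, 1593 genes and 1 member (MED1) were called over 4 libraries. These were the CTTN and control libraries that the labels number 1 and 2, so CTTN 3 and control 1 of the sample table were left out. With the numbers of the sample table as the block, 109 genes and 0 members were called over all 6 libraries, a setting added after seeing the data. Of 190 alternative values of the members' fold changes, 170 kept direction and side of the threshold, 17 passed the threshold and 3 reversed. The fit without control 1 enters these 190 values under 2 settings. The reversed values were -0.00116 for ERBB2 and 0.02 for PPP1R1B without CTTN 2, and 0.01 for PGAP3 with length trend offsets and without CTTN 2. Leaving out 1 library at a time gave PPP1R1B values of -0.29 to 0.02. The cause was not tested. The control FPKM of all 10 members moved by less than 1 SD when only control columns named in the labels were used.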
